A study of Mus musculus with 2 samples.

Results

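The genes described here encode 9 enzymes of DNA replication and DNA repair that carry an iron-sulfur cluster: Pold1, Pole, Prim2, Dna2, Ercc2, Rtel1, Brip1, Nthl1 and Mutyh. They were chosen by name, and all 9 were found among the 14366 genes of both libraries. The study exposed mouse hematopoietic stem cells (HSC), the marrow cells that can renew all blood lineages, to deferoxamine (DFO), which binds iron, and measured transcripts in single cells. Lineage-depleted marrow of 8 wildtype C57/B6 mice, 6 to 8 weeks old, was pooled, and cells negative for lineage markers and CD48 and positive for Sca-1, c-Kit and CD150 were sorted. Both groups grew for 48 h in medium with thrombopoietin (50 ng/ml) and stem cell factor (100 ng/ml), the treated group with 10 µM DFO and the vehicle group with sterile water. Each group is 1 library, of 8708 cells for vehicle and 9852 cells for DFO. Differences between the groups therefore have no replicate check, and p-values are left out. The labels do not say whether a single sort fed both cultures.

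An iron-sulfur cluster is a small inorganic group of iron and sulfur atoms held by cysteines of a protein. It is built in mitochondria and the cytosol, and the cytosolic targeting machinery, which includes Mms19 and Ciao1, hands it to nuclear enzymes. In DNA polymerases, primase and the helicases named here the cluster is needed for a stable or active enzyme, so these proteins tie genome copying to iron supply. Transcript counts as used here do not report on whether a protein holds its cluster.

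The libraries held 260938938 (vehicle) and 284326017 (DFO) molecules, with a median of 27805.5 and 27114 molecules, counted as unique molecular identifiers (UMIs), per cell. The libraries shared 24 cell barcodes. The sort markers were present after culture, with Ly6a (Sca-1) at 83.9 and 111 CPM (the molecules of a gene scaled to a library total of 1000000 molecules), Kit at 35.3 and 40.7 and Slamf1 (CD150) at 14.4 and 11.8, vehicle first. Cd48, whose protein the sort selected against, was at 103 and 108 CPM. Summed markers of megakaryocytes were lower in the DFO library (2088 against 1091 CPM), with 9 of 11 tested past the fold defined below. Erythroid markers summed to 451 and 433 CPM, but 6 of 7 tested were past the fold lower in DFO, and the sum was mostly Car2, at 341 and 352 CPM. Markers of neutrophils and monocytes summed to 199 and 181 CPM, with 2 of 5 past the fold lower, and those of mast cells or basophils to 10.6 and 7.03 CPM, with 2 of 2 lower. No marker of these lists found among the 14366 genes was at 0 in both libraries. The part of these marker differences in the values below was not tested, but values with equal shares of each cell cluster are given for Dna2.

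All 9 enzymes were expressed, at levels from 5.99 to 47.7 CPM in the vehicle library and from 6.22 to 49.7 CPM in the DFO library. The kit counts each molecule once at its 3′ end, so these levels were not divided by transcript length. The order of the genes was the same at the top in both libraries, Prim2, then Dna2, Pold1, Pole, Brip1 and Nthl1, with Poisson intervals that did not overlap between these neighbours. Rtel1 followed, apart from Mutyh in the vehicle library but with overlapping intervals in the DFO library. Mutyh and Ercc2 were lowest, and their intervals overlapped each other in both libraries. Intervals in this text are exact 95% intervals and cover counting error only. They leave out variation between cells and between cultures.

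**Figure D1:**
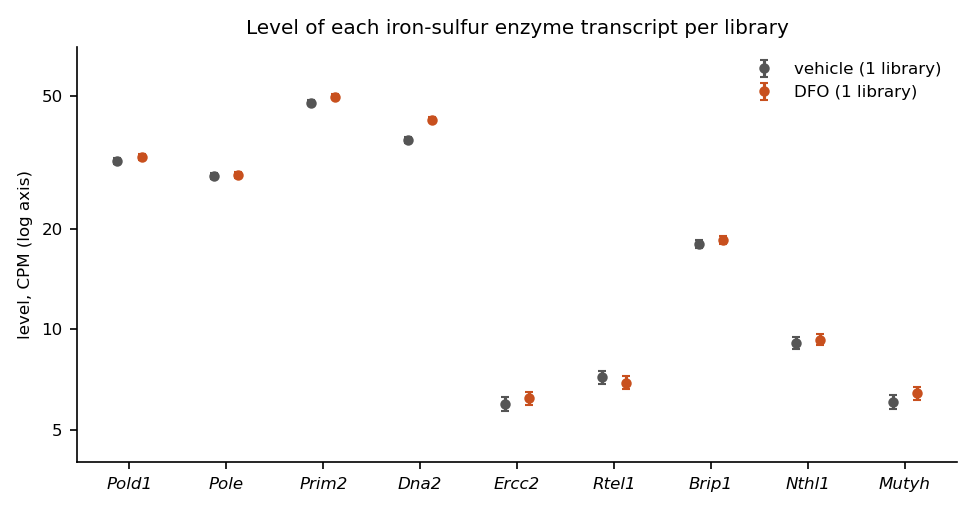
Level of each of the 9 enzymes in CPM (log axis) in the vehicle and DFO libraries, 1 point per library with exact 95% Poisson intervals. Dna2 has the widest gap between libraries, 36.9 against 42.4 CPM, and Ercc2 and Mutyh sit lowest.

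Pold1, the catalytic subunit of DNA polymerase delta (chr7:44532746-44548849, minus strand, GRCm38), was at 31.8 CPM in the vehicle and 32.8 CPM in the DFO library. Pole, the catalytic subunit of DNA polymerase epsilon (chr5:110286306-110337474, plus strand), was at 28.8 and 29.0 CPM. Prim2, the large subunit of primase, which starts each new strand (chr1:33453810-33669795, minus strand), was at 47.7 and 49.7 CPM. For these 3 the libraries lay close. The ratio of DFO to vehicle was 1.03 (1.001 to 1.06) for Pold1 and 1.01 (0.975 to 1.04) for Pole. It was 1.04 (1.02 to 1.07) for Prim2. The interval lay above 1 for Pold1 and Prim2, and the share of all genes where it did was not computed for whole libraries.

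Dna2, a nuclease and helicase that trims flaps on lagging strands and resects broken ends (chr10:62947026-62974185, plus strand), had the highest difference of the 9. It was at 36.9 CPM (36.1 to 37.6) in the vehicle library and 42.4 CPM (41.7 to 43.2) in the DFO library, a ratio of 1.15 (1.12 to 1.18). Its log2 difference, log2((DFO CPM + 1)/(vehicle CPM + 1)), was 0.20, and 3.99% of the 11119 genes with a mean of at least 1 CPM had one as high or higher.

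The other helicases and the glycosylases were lower than these 4. Ercc2, the XPD helicase of the transcription and repair factor TFIIH (chr7:19382010-19395694, plus strand), was at 5.99 CPM in the vehicle and 6.22 CPM in the DFO library. Klc3 overlaps it on the opposite strand and the sources used here do not state how strand was handled, so the Ercc2 value is uncertain. The same limit holds for Pold1, Pole, Prim2 and Brip1, which other annotated genes overlap on the opposite strand. Annotated genes also overlap Ercc2, Pold1, Pole and Prim2 on the same strand, and the part of such overlaps in the values was not tested. Rtel1, a helicase that unwinds telomere loops (chr2:181319739-181356616, plus strand), was at 7.19 and 6.92 CPM. Brip1, the FANCJ helicase, a partner of Brca1 in crosslink repair (chr11:86058138-86201193, minus strand), was at 18.0 and 18.6 CPM. The glycosylases remove damaged or mispaired bases. Nthl1, which acts on oxidised pyrimidines (chr17:24632680-24638837, plus strand), was at 9.10 and 9.32 CPM, and Mutyh, which removes adenine opposite oxidised guanine (chr4:116807723-116819440, plus strand), was at 6.08 and 6.43 CPM. The interval of the ratio included 1 for all 5, from 0.903 to 1.03 for Rtel1 up to 0.989 to 1.13 for Mutyh.

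No enzyme passed a log2 difference of 0.25 in either direction between the libraries, where 1.81% of all genes tested were past it higher in DFO and 3.4% lower. Of the 9, 8 were higher and 1, Rtel1, lower in DFO, against 57.0% of all genes higher. Their median log2 difference was 0.043, and that of all genes was 0.017, with 5% of genes below -0.20 and 5% above 0.19. Poisson intervals did not overlap for 2 of 9, Prim2 and Dna2, both higher in DFO. Such intervals were common, in 28.6% of all genes in the higher direction and 19.8% in the lower, so 2 of 9 is not a result about these enzymes. Over 11 processing alternatives the sign turned for Pole, Prim2, Rtel1, Brip1 and Nthl1, and between 5 and 9 of the enzymes lay above 0. Dna2 stayed positive, from 0.098 in male cells to 0.23 with the mean of per-cell CPM.

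**Figure D2:**
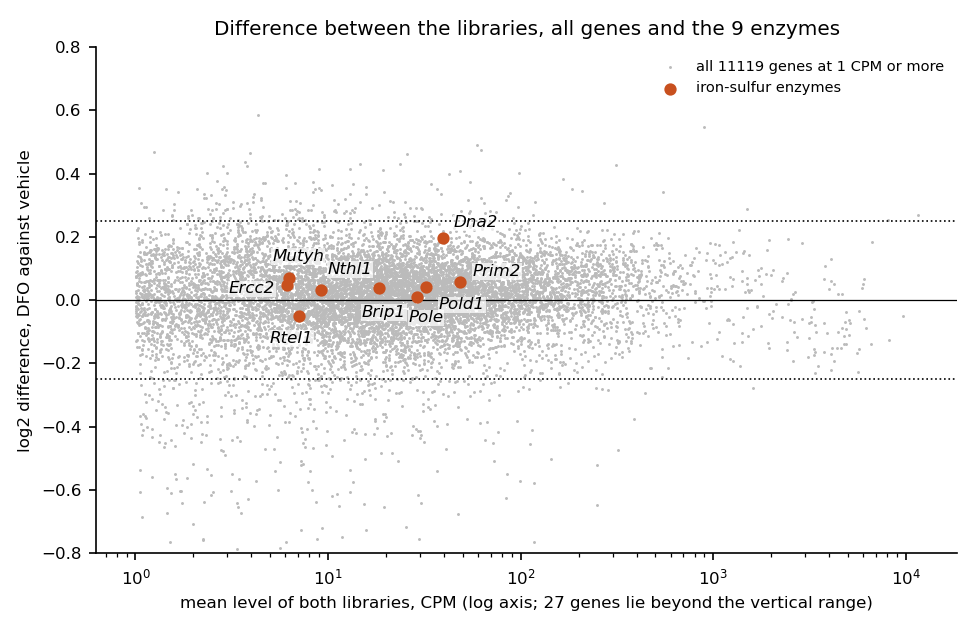
The log2 difference, DFO against vehicle, of the 11119 genes tested against their mean level in CPM (log axis), with the 9 enzymes in colour and dotted lines at 0.25 and -0.25. Of these genes 27 lie beyond the vertical range and are not drawn. All 9 enzymes lie between the lines, Dna2 nearest to the upper one at 0.20.

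The cells were grouped into 9 clusters by their transcripts, without the 9 enzymes and the cell cycle score genes. Dna2 was higher in DFO in 9 of 9 clusters, by 0.028 to 0.32, and the ratio's interval lay above 1 in 6 of them. The share of all genes that did so was not computed, and the clusters divide the cells of the same libraries. These counts are therefore a description and not a replicate check. In the HSC-like cluster, which carries Procr, Ly6a and Sult1a1 among its leading genes, Dna2 was at 43.4 CPM (41.3 to 45.6) in the vehicle and 52.1 CPM (49.8 to 54.5) in the DFO library. In the megakaryocyte-like cluster it was at 38.2 and 43.0 CPM, and in the erythroid-like cluster at 37.2 and 45.0 CPM. The lowest difference was in the cluster led by the histone genes Hist1h1b and Hist1h1a (cluster 2), where 49.8 and 50.8 CPM had overlapping intervals. Dna2 was low in both libraries in the cluster led by the mitosis genes Nusap1 and Ube2c (cluster 1), at 24.8 and 29.5 CPM, and in the cluster led by Trnp1 and Il1rl1 (cluster 6). Cells from both sexes are in the pool, told apart here by Xist and Y-linked transcripts. In female cells Dna2 was at 36.8 and 43.0 CPM, a ratio of 1.17 (1.13 to 1.21), and in male cells at 37.4 and 40.1 CPM, a ratio of 1.07 (1.02 to 1.12). Mutyh had its larger ratio in male cells, 1.16 (1.03 to 1.31) against 1.03 (0.942 to 1.13) in female cells, and Prim2 in female cells, 1.08 (1.04 to 1.11) against 0.982 (0.941 to 1.02). Brip1 was at 1.07 (1.01 to 1.13) in female and 1.00 (0.932 to 1.07) in male cells. For the other 5 enzymes both intervals included 1. With the cells weighted to equal cluster shares the log2 difference of Dna2 was 0.18, and with equal phase shares it was also 0.18. Whether the female and male ratios differ was not tested, since each group is 1 library.

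**Figure D3:**
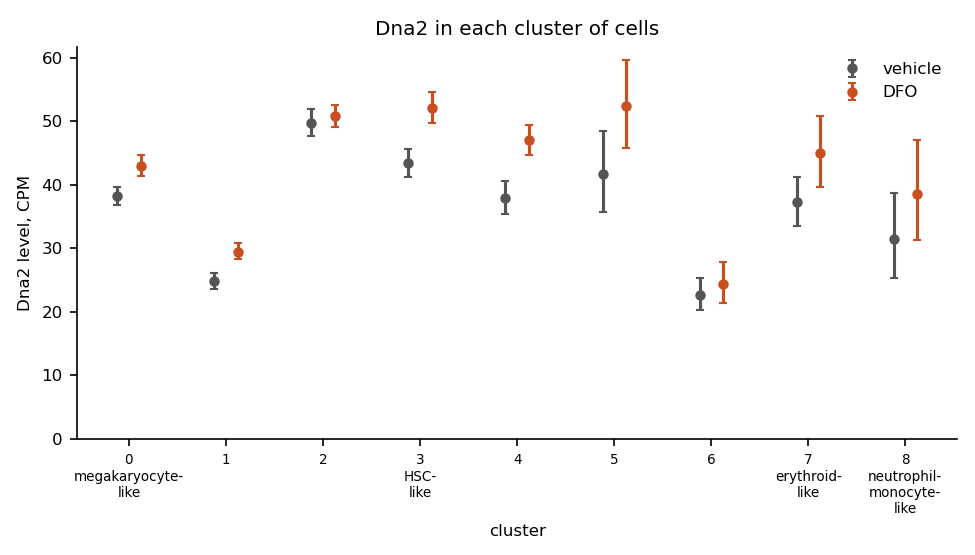
Dna2 level in CPM in each of 9 cell clusters for the vehicle and DFO libraries, with exact 95% Poisson intervals. The DFO library is higher in all 9, and cluster 6 is lowest in both, at 22.7 and 24.4 CPM.

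The second question was how the enzymes follow the cell cycle. Cells were thinned to 10000 UMIs, scored for S phase and G2/M genes, and given a phase: G1 where both scores were below 0, otherwise the phase of the higher score. The vehicle library had 785 G1, 1936 S and 5636 G2/M cells, and the DFO library 617, 2369 and 6433, with 351 and 433 shallower cells left out. These phases are ranges of a score, and 1197 vehicle and 1383 DFO cells lay within 0.05 of a boundary. Depth moved with phase, with median UMIs of 18355, 25648.5 and 31677 in vehicle G1, S and G2/M cells, and so did cell type, since the HSC-like cluster held 69.4% of vehicle and 76.2% of DFO G1 cells but 36.7% and 36.3% of S cells and 5.15% and 4.43% of G2/M cells. Of 14 HSC markers, 8 were lower in S than in G1 cells by the fold used below. The part of depth and of free RNA in the values below was not tested. None of the 9 enzymes was used for the scores. Brip1 was on the S gene list and was taken out of it, so its higher level in S cells is not an independent finding.

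In both libraries 6 of the 9 enzymes were higher in S than in G1 cells by at least 0.5 on the log2 scale, where 3.98% of 11167 genes tested were, and none was lower by that much, where 5.78% of genes were. Brip1, which came from the S gene list whose other genes these shares leave out, had the widest gap. In the vehicle library its G1 level was 4.89 CPM (3.82 to 6.15) and its S level 23.3 CPM (22.0 to 24.6), a ratio of 4.76 (3.75 to 6.13). In the DFO library the levels were 5.40 CPM (4.13 to 6.93) and 23.6 CPM (22.4 to 24.9), a ratio of 4.38 (3.39 to 5.75). The other 5 were Pole, Prim2, Dna2, Rtel1 and Mutyh. Pole was at 16.1 CPM in G1 and 36.0 CPM in S cells of the vehicle library, and at 15.8 and 35.5 CPM in the DFO library. Prim2 was at 30.1 and 58.0 CPM, and at 31.5 and 59.7 CPM. Mutyh was at 4.75 and 7.17 CPM, and at 3.81 and 7.09 CPM. For Mutyh the G1 and S intervals did not overlap in either library, but the share of all genes so placed was not computed. The G1 groups are small: Mutyh rests there on 70 and 43 molecules, Rtel1 on 53 and 47, and Brip1 on 72 and 61.

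Pold1, at 23.2 CPM in G1 and 37.9 CPM in S cells of the vehicle library and at 27.3 and 37.1 CPM in DFO, was past the fold in the former at 0.68 and short of it in the latter at 0.43. Ercc2 stood at 0.13 and 0.42, and Nthl1 was lower in S, at -0.16 and -0.27, so that neither followed S phase in both libraries by the fold set. Within the HSC-like cluster alone, 6 enzymes were again past the fold from G1 to S, with Pold1 in and Rtel1 out. In that cluster 3.19% of genes were higher past the fold. When the scores were centred on their medians, which puts 1302 vehicle and 1088 DFO cells in G1, 3 enzymes were past it, Brip1, Pole and Prim2. With these scores 1.69% of genes were higher past it. Without likely doublets Mutyh was no longer past it. Without cells near a phase boundary 7 enzymes were past it, where 6.62% of genes were higher, and Pold1 was in at 0.84 and 0.76. Phases scored without thinning also gave 7, where 7.06% of genes were higher, with Pold1 in at 0.93 and 0.56. On a scale of molecules per cell, which lets depth in, 8 enzymes passed and 3633 genes were higher and 99 lower in S, against 444 and 646 on the main scale.

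Fewer enzymes passed the fold between G2/M and G1 cells. Here 4 were higher by at least 0.5 in both libraries, Pole, Prim2, Rtel1 and Brip1, where 5.65% of 11154 genes were, and none was lower, where 9.32% were. Within the HSC-like cluster alone Rtel1, at 0.87 and 0.17, was no longer past the fold, and Mutyh, at 0.64 and 1.06, was. In that cluster 3.81% of genes were higher past the fold. With centred scores 1 enzyme, Brip1, was past it, where 2.94% of genes were higher. Per cell, 8 enzymes passed, and 7663 genes were higher and 83 lower, against 630 and 1039. Rtel1 was at 3.60 CPM in G1, 7.27 CPM in S and 7.43 CPM in G2/M of the vehicle library, and at 4.16, 6.84 and 7.05 CPM in DFO. Its S and G2/M intervals overlapped in both libraries. Dna2 differed, at 29.7, 54.9 and 32.5 CPM in vehicle and 39.9, 60.9 and 37.1 CPM in DFO, with no increase from G1 to G2/M past the fold (0.13 and -0.10). This depended on the cells used. Within the HSC-like cluster alone Dna2 was at 0.51 in vehicle, past the fold, and 0.36 in DFO. With centred scores it was at -0.31 and -0.48.

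**Figure D4:**
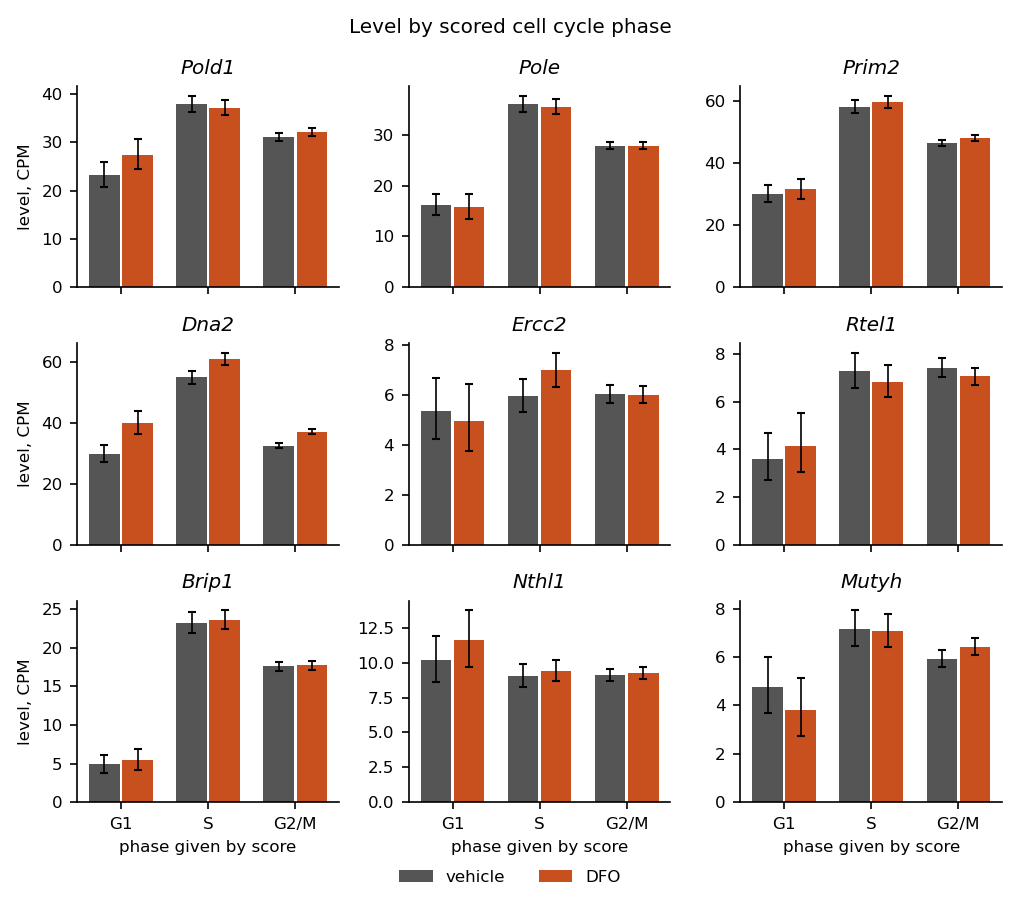
Level of the 9 enzymes in CPM by scored phase (G1, S, G2/M) for the vehicle and DFO libraries, with exact 95% Poisson intervals. Brip1, Pole, Prim2 and Dna2 stand highest in S cells, and Ercc2 and Nthl1 are not past the fold between phases.

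A finer view divided the cells into 5 bins along each score, with boundaries set over both libraries together and bin 5 the highest. In both libraries 5 enzymes, Pold1, Pole, Prim2, Dna2 and Brip1, were higher in each S score bin than in the one before. The share of all genes that did so was not computed, so this count is a description only. Brip1 was at 11.2 CPM in bin 1 and 28.0 CPM in bin 5 of the vehicle library, and at 12.1 and 26.7 CPM in DFO. Dna2 was at 22.2 and 54.8 CPM, and at 24.8 and 60.0 CPM. Prim2 was at 34.2 and 64.6 CPM, and at 38.7 and 63.5 CPM. Pold1 had the smallest span of the 5, at 25.4 and 39.0 CPM in vehicle and 26.7 and 37.9 CPM in DFO. The other 4 enzymes had ratios of bin 5 to bin 1 between 0.797 and 1.26, and Mutyh was higher at each step in the DFO library but not in the vehicle library.

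Along the G2/M score Dna2 had the widest span of the 9, with a ratio of highest to lowest bin of 2.35 in the vehicle and 2.27 in the DFO library. It was highest in bin 2, at 52.1 CPM for vehicle and 59.0 for DFO, and lowest in bin 5, at 22.2 and 26.0 CPM. Pold1, Pole and Prim2 were also lowest in bin 5, but with smaller spans, for Prim2 from 54.3 to 40.8 CPM in vehicle and from 55.3 to 42.4 CPM in DFO. Brip1 and Rtel1 were lowest in bin 1. For Rtel1 that level was 5.14 CPM for vehicle and 5.53 for DFO, against 7.21 and 7.48 CPM in bin 5. Dna2 was higher in DFO in 5 of 5 bins of each score, by 0.12 to 0.21 along S and by 0.097 to 0.30 along G2/M. The intervals did not overlap in 4 bins of each. The share of all genes that did so was not computed, and the bins divide the cells of the same libraries, so these counts are a description only.

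**Figure D5:**
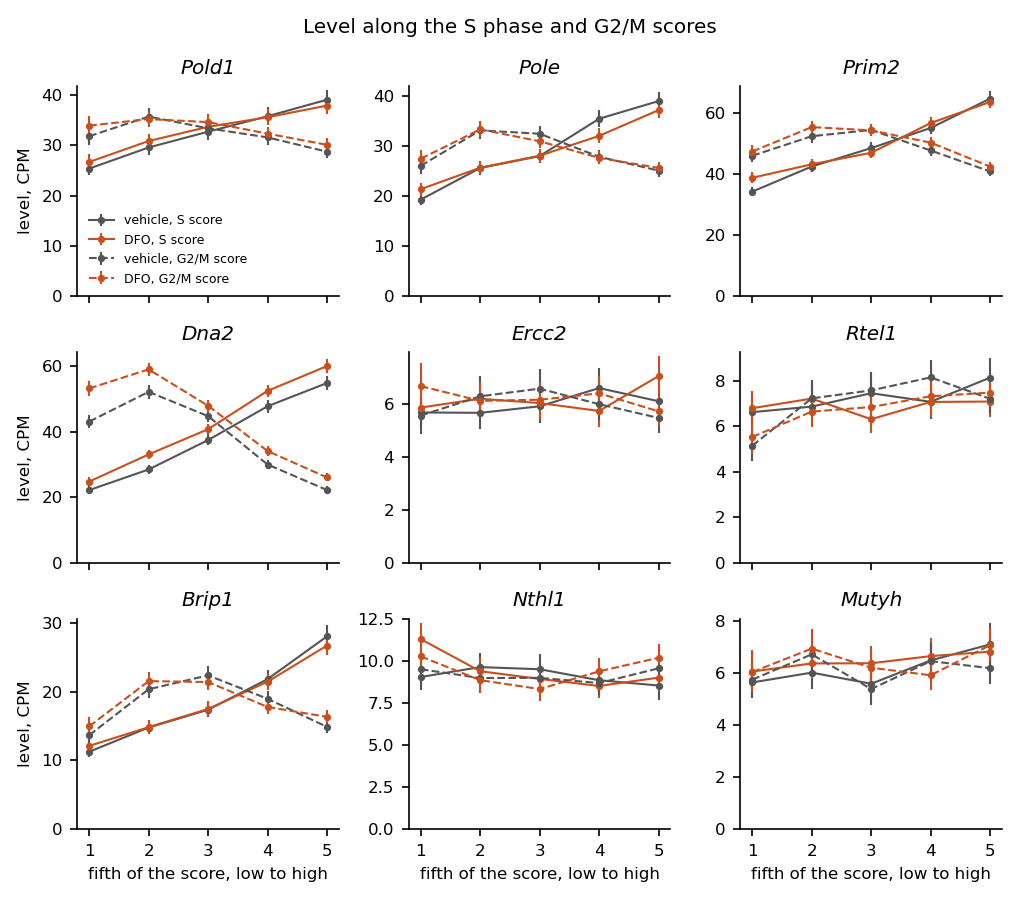
Level of the 9 enzymes in CPM in 5 bins of the S score (solid lines) and of the G2/M score (dashed lines) from low to high, for the vehicle and DFO libraries, with exact 95% Poisson intervals. The solid lines of Pold1, Pole, Prim2, Dna2 and Brip1 climb at each step, and the dashed lines of Dna2 peak in bin 2 and are lowest in bin 5.

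Within the phases, the libraries were compared again. In G1 cells, where 10.2% of genes were higher and 10.1% lower by 0.25, 1 enzyme was past that fold in each direction. Dna2 was at 29.7 CPM (27.0 to 32.6) in vehicle and 39.9 CPM (36.3 to 43.8) in DFO G1 cells, a difference of 0.41. Mutyh was at -0.26, with a ratio interval of 0.535 to 1.19 that includes 1. The G1 groups were not alike, with median S scores of -0.139 in vehicle and -0.112 in DFO. Near a phase boundary lay 247 of 785 vehicle and 247 of 617 DFO G1 cells. Without cells near a boundary, Dna2 in S against G1 was at 0.98 in vehicle and 0.92 in DFO, against 0.86 and 0.60 with them. The part of such cells in the G1 difference of Dna2 was not tested. In S cells, where 2.89% of genes were higher and 3.7% lower, and in G2/M cells, where 2.16% were higher and 3.59% lower, no enzyme was past that fold. Dna2 stood at 0.15 in S and 0.18 in G2/M. The interval of the ratio lay above 1 for 2 of the 9 enzymes in each phase and below 1 for none. These were Dna2 and Pold1 in G1 cells, where 12% of genes had an interval above 1 and 9.35% below, Dna2 and Ercc2 in S cells, where 19.8% and 13.5% did, and Dna2 and Prim2 in G2/M cells, where 33.4% and 22.9% did.

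Promoters are printed for 3 genes to set the E2F motif, the site of the factor that drives many S phase genes, beside these levels. The motif was searched on both strands as TTTCCCGC, TTTCGCGC, TTTGCCGC and TTTGGCGC in 250 bases before and 50 after each gene start, taken from RefSeq (GRCm38.p6), where 7 of the 9 genes had an entry. Capitals mark a match. Pold1 and Nthl1 held 1 match each, and Brip1, the gene with the widest S difference, held none. Pold1 is shown from chr7:44548766-44549065 (minus strand), Nthl1 from chr17:24632432-24632731 (plus strand) and Brip1 from chr11:86201144-86201443 (minus strand), each 5′ to 3′.
Pold1: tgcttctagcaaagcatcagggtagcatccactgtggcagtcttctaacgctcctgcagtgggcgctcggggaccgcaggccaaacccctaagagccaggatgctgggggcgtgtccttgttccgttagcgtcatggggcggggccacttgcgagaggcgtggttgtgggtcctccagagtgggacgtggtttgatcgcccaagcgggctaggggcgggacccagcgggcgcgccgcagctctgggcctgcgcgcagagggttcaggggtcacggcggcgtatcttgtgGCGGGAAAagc
Nthl1: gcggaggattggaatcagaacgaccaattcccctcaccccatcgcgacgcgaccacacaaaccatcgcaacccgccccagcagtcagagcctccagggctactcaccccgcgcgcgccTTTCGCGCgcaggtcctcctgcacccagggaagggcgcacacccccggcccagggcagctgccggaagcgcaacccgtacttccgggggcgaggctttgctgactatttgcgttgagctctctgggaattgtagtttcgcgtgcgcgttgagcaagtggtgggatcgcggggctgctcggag
Brip1: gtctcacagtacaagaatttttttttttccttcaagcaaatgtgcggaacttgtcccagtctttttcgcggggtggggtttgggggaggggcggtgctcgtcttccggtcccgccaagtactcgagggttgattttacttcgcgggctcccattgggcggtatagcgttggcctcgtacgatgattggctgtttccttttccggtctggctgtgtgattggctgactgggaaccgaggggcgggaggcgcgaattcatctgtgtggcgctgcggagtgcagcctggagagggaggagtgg
Of all 32851 promoters in the table, 2.26% held a match, and so did 4.94% of genes tested in these cells, 2 of the 7 enzymes, 8 of 12 replicative helicase and loading genes and 12 of 30 S score genes. The match in Nthl1, which did not follow S phase, and the absence of these letters in Brip1 are descriptions only.

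Genes with the most similar pattern were sought over 47 bins of cells, each from 1 library and 1 bin of both scores with at least 50 cells. The bins share library and depth, and the correlations are a description. For Dna2 these were Rfc3 (Pearson r 0.965), a clamp loader subunit, Orc6 (0.948), of the origin recognition complex, and E2f1 (0.945). Between the libraries Rfc3 differed by 0.20, Orc6 by 0.065 and E2f1 by 0.089. For Brip1 they were Ncapg2 (0.971), a condensin subunit, Ercc6l (0.958) and Lrr1 (0.957). For Pold1 they were Cdc7 (0.949), a kinase that fires origins, Brca2 (0.944) and Brca1 (0.932). For Pole they were Eri1 (0.947), Prim2 (0.943) and Dnmt1 (0.941), and for Prim2 Brca1 (0.948), Dnmt1 (0.947) and Brip1 (0.945). Rtel1 was nearest to Eme1 (0.880), Neil3 (0.877) and Pbk (0.870). The closest genes of Ercc2 (Hgsnat, 0.744), Nthl1 (Ahdc1, 0.724) and Mutyh (Arhgap21, 0.746) were less alike. Among the enzymes themselves, Pold1, Pole, Prim2 and Brip1 had correlations of 0.854 to 0.945 with each other. Dna2 had lower ones with them, from 0.455 with Brip1 to 0.650 with Pold1, and Nthl1 had negative ones with every other enzyme, down to -0.55 with Prim2.

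The enzymes work with partner subunits that lack a cluster, and the same comparison between libraries was made for lists of such genes. Among 19 partner subunits none was past 0.25 higher and 1, Pold4, a small subunit of polymerase delta, was lower at -0.26 (76.6 CPM for vehicle and 63.8 for DFO). With equal phase shares, equal cluster shares or a pseudocount of 5, Pold4 was short of the fold. The median of the list was 0.046. Its next lowest gene was the TFIIH kinase Cdk7 at -0.027, and its highest were the TFIIH helicase Ercc3 and the polymerase epsilon subunit Pole4, both at 0.14. Of 10 other iron-sulfur enzymes tested none was past the fold, and their median was 0.050. They ran from Rev3l, the catalytic subunit of polymerase zeta, at -0.067 and Aco1, the iron-regulated cytosolic aconitase, at -0.035 to the ribosome recycling factor Abce1 at 0.14 and Dph2, of diphthamide synthesis, at 0.20.

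The 9 cytosolic iron-sulfur assembly genes held none past the fold, with a median of 0.032. The targeting factor Mms19 was at -0.11 and the scaffold gene Nubp1 at -0.087, and Nubp2 was at 0.11 and Ciapin1 at 0.17. The 23 repair enzymes without a cluster held none past the fold, with a median of 0.0084. The RecQ helicases Wrn and Blm were at -0.18 and -0.16, and the nuclease Exo1 and the uracil glycosylase Ung at 0.16 and 0.17. The 16 replicative helicase and loading genes held none past the fold either. Of these, 16 of 16 lay above 0, where 57.0% of all genes did, with a median of 0.076. They did so in each of the 11 alternatives, which reuse the same libraries. They ran from Gins2 at 0.032 and Mcm3 at 0.044 to Cdt1 and Mcm7, both at 0.17. Only 9 of the 16 are outside the S and G2/M scores, and the rest are S score genes that helped to set the phases. S cells were 23.2% of scored vehicle and 25.2% of scored DFO cells, and with equal phase shares the median of this list was 0.063.

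In S against G1, among the listed genes outside the S and G2/M scores, 6 of 9 replicative helicase and loading genes were higher past the fold in both libraries and none lower. Of 16 partner subunits 2 were higher, Brca1 and Pola2, and 1 was lower, Pold4. Of 19 repair enzymes without a cluster 2 were higher, Neil3 (2.56 and 2.80) and Recql, and 1 lower, Ercc5. Of 10 other iron-sulfur enzymes 2 were higher, Ddx11 and Ppat, and of 9 assembly genes none. These genes were named after their values were seen.

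Across the 9 clusters, Pold1, Pole, Prim2 and Brip1 were highest in the cluster led by histone genes in both libraries. Of its scored cells 37.4% were S and 62.1% G2/M, while S cells were 49.7% of the HSC-like and 42.7% of the erythroid-like cluster. Brip1 was there at 27.8 CPM for vehicle and 26.0 for DFO, and lowest at 9.84 CPM in an unnamed cluster of the vehicle library and at 9.78 CPM in the erythroid-like cluster of the DFO library. Nthl1 was lowest in the cluster of shallow cells, with a median of 6976 UMIs, at 3.16 and 3.93 CPM from 13 and 17 molecules. Pold1 was also lowest there, at 17.2 and 16.2 CPM, and Mutyh was lowest in the megakaryocyte-like cluster, at 3.56 CPM for vehicle and 4.01 for DFO.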

How the data were processed

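Single-cell transcripts of 2 libraries were analysed. Per the labels' protocols, libraries were made with 10x Genomics 3′ v3 kits and sequenced on a BGISEQ-500. FastQC 0.11.9, Trim Galore 0.6.5, Cell Ranger 3.0.2 and the build mm10 are named, with no role or order, per the submitters' processing notes. The authors deposited natural log values per gene and cell, with no cell filter stated. After the log was undone, cell sums reached 27408 at most, and each nonzero value was a whole number of molecules within a tolerance of 0.05, so molecules were recovered from the deposited values.

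Molecules were summed per library or group of cells and scaled to CPM. Genes with a mean of at least 1 CPM were tested, with a pseudocount of 1. With 1 library per group there is no count model and no test, and called means past a log2 difference of 0.25 (0.5 in both libraries for phases). Intervals are exact Poisson (levels) or from Clopper-Pearson (ratios). Depth is 260938938 and 284326017 molecules. The calculation was tested on simulated counts. Phases came from scanpy 1.11.5 on cells thinned to 10000 UMIs, with Brip1 taken out of the S gene list. Clusters came from leidenalg 0.10.2 (2000 variable genes, 30 components, 15 neighbours, resolution 0.5) and were named from markers. Scrublet called 3 and 2 cells, so its threshold had not worked. Cells likely to be doublets (820 and 925) were left out in an alternative only. Cells were called female or male from Xist and Y-linked molecules. Python 3.11.15, numpy 2.4.6, scipy 1.17.1 and pandas 2.3.3 were used. Gene positions are from GENCODE M21 (GRCm38).

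The named genes are the 9 members, the 3 genes most like each by pattern, the 2 highest and 2 lowest of each list, and genes said to be named after their values were seen. The members and lists were chosen with earlier results of these data known. Stretches of the proteins were planned and are not shown.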

Additional observations from a re-analysis of the deposited data

How the results depend on the processing

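No paired analysis was possible because each group is 1 library. Leaving out a replicate was not possible for the same reason. Alternatives changed how cells were combined, scaled, filtered and scored. Centred scores and the restriction to the HSC-like cluster were chosen after seeing the data. No member passed the 0.25 fold between the libraries under any of the 11 alternatives for single members. Of 99 such values, 5 lay outside the counting interval of the main difference. The number of genes higher in DFO was 201, and it was 353 with a pseudocount of 0.1, 60 with a pseudocount of 5, 109 with equal cluster shares and 124 with a minimum of 5 CPM. The number lower was 378, and it was 183, 228 and 229 with the last 3 of these. From G1 to S, 444 genes were higher and 646 lower. Phases scored without thinning gave 791 and 1154, molecules per cell 3633 and 99, leaving out cells near the phase boundaries 743 and 1055, a threshold of 0.25 gave 1472 and 2050, and centred scores 187 and 194, with 3 members in place of 6. The lower count was 409 with a minimum of 5 CPM and 270 within the HSC-like cluster. From G1 to G2/M, 630 genes were higher and 1039 lower. Molecules per cell gave 7663 and 83, with 8 members in place of 4, a threshold of 0.25 gave 1903 and 2398, and centred scores 325 and 353, with 1 member. The lower count was 635 with a minimum of 5 CPM and 427 within the HSC-like cluster. Within G1 cells, 2 members were higher and 0 lower past the fold with phases scored without thinning, against 1 and 1, and with a minimum of 5 CPM 0 were lower because the filter left 7 members and removed Mutyh. Of the 9 enzymes, 4 differed at least 2-fold across clusters in both libraries, 2 did at resolution 0.25 and 6 at resolution 1.0. The share of all genes that did so is not given here, so these counts are a description only. The lowest cluster of Nthl1 rests on 13 vehicle and 17 DFO molecules. Other causes were not tested. Depth limits the comparisons with G1 cells, where Ercc2, Rtel1, Brip1 and Mutyh rest on 43 to 79 molecules per library.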
